A study of Mus musculus with 9 samples.

Results

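The genes described here make asparagine, serine, proline and one-carbon units, or carry amino acids into the cell, and are known as targets of the transcription factor ATF4. They were chosen by name with earlier results of these data known. The list held 10 genes (Asns, Psat1, Phgdh, Psph, Shmt2, Mthfd2, Aldh18a1, Pycr1, Slc7a5 and Slc3a2). Of these, 9 were found among the 15228 genes with a level, and Pycr1 was not analysed here. All 9 passed the filter on low levels. The libraries were made from cells of C57BL/6J wild-type mice that were sorted by flow cytometry as retinal ganglion cells (RGCs), the neurons whose axons form the optic nerve. The study as a whole used both sexes, and it gives 6 to 8 weeks as the age at optic nerve surgery. The Ctrl group came from uninjured eyes, for which no injection is given in the sources used here. The ONC group was taken 3 d after optic nerve crush (ONC) with an intraocular injection of PBS vehicle, and the TPEN group 3 d after the same crush with an intraocular dose of 100 μM TPEN, which chelates mobile zinc. Each group had 3 libraries, and no source used here ties a library to its mouse, so p-values measure only the spread between these libraries.

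ATF4 is the main effector of the integrated stress response, in which phosphorylation of eIF2α slows general translation while translation of Atf4 mRNA rises. ATF4 binds C/EBP-ATF response elements, often together with a C/EBP partner, and raises transcription of genes for amino acid synthesis, amino acid uptake and the mitochondrial folate pathway. Serine made from a glycolytic intermediate gives glycine and one-carbon units, which feed the synthesis of nucleotides and methyl groups.

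The stretch of 250 bases before the RefSeq transcription start is shown for 3 members that were upregulated by at least 1.5-fold in ONC/Ctrl (Asns, Phgdh and Mthfd2) and for Aldh18a1, which was lower in TPEN/ONC. The bases were taken from RefSeq on GRCm38.p6. All 4 lie on the minus strand and read 5′ to 3′ toward the start. They cover chr6:7693210-7693459 (Asns), chr3:98339970-98340219 (Phgdh), chr6:83317605-83317854 (Mthfd2) and chr19:40588464-40588713 (Aldh18a1). Capitals mark the core of the C/EBP-ATF response element (TGATGNAA), the E-box (CACGTG) and the core of the antioxidant response element (TGACNNNGC), which were searched on both strands.
Asns: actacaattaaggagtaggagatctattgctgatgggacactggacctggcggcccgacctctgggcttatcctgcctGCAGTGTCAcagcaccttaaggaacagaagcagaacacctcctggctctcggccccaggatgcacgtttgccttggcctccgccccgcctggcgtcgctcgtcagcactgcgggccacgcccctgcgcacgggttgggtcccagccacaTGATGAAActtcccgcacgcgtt
Phgdh: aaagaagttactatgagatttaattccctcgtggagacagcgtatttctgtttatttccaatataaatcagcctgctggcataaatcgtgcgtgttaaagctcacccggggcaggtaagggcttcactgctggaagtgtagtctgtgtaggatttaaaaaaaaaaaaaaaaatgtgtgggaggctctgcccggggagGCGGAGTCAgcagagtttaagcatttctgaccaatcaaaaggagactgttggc
Mthfd2: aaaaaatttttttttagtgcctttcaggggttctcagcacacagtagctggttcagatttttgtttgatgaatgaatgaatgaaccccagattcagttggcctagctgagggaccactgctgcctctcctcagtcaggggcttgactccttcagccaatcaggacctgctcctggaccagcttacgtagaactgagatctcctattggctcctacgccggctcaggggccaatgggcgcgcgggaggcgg
Aldh18a1: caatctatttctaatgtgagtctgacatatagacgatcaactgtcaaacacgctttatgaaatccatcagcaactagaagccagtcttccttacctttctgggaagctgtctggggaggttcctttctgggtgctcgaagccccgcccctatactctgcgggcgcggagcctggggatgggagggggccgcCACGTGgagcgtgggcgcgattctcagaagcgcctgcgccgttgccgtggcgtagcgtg
The Asns window held the response element core as TGATGAAA on the gene's own strand, with its first base 23 bases before the start (chr6:7693225-7693232). It also held an antioxidant response element core on the other strand, 172 bases before the start. The Phgdh window had the latter core 53 bases before the start, the Aldh18a1 window had an E-box 59 bases before it, and none of these letters was in the Mthfd2 window. Windows running from 250 bases before to 50 bases after a start were at hand for 9 of the 10 listed genes, with 10 windows in all since Psat1 had 2. The response element core was in 2 of the 10 windows, those of Asns and Pycr1. It was in 3.97% of all 32851 promoter windows and in 2.2% of the 13249 windows of genes with a level. The E-box was in 1 of the 10, in 7.15% of all windows and in 9.55% of those of genes with a level. The antioxidant response element core was in 3 of the 10 (Asns, Phgdh and Psph). Its shares were 12.4% of all windows and 14.2% of those of genes with a level. The 3 motifs do not overlap one another in the stretches shown. The RefSeq start of Mthfd2 lies 8304 bases inside the span given for the gene in the deposited table, whereas those of Asns, Phgdh and Aldh18a1 lie 45, 21 and 0 bases inside theirs. Such a match describes the letters in the window and no binding was measured.

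The read totals that the values imply ranged from 19946993 to 23109754 per library. Libraries of the same group had Pearson correlations of 0.991 to 0.993 across genes, and those of different groups 0.970 to 0.984. Of 11 RGC markers analysed, 8 passed the filter on low levels, among them the neurofilament gene Nefl at 192.7 to 271.0 RPKM (reads scaled to exon length and library size), the synuclein gene Sncg at 17.3 to 24.8 RPKM and Thy1, which encodes the CD90 used in the sort, at 4.54 to 7.58 RPKM. The other 3, Rbpms, Pou4f1 and Slc17a6, stayed below 1 RPKM, with highest values of 0.688, 0.678 and 0.534 RPKM. Gnat1, the rod transducin gene, was higher than all of these (9594.4 to 12061.9 RPKM). The summed level of 13 microglia and macrophage markers was 5.01 to 5.74 RPKM in Ctrl, 63.7 to 67.4 RPKM in ONC and 27.7 to 28.5 RPKM in TPEN. The libraries are therefore called those of cells sorted as RGCs, and in such bulk samples a change in the number of cells of a type cannot be told apart from a change in RNA per cell.

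Asns encodes asparagine synthetase, which makes asparagine from aspartate and glutamine (chromosome 6, 7675169 to 7693254, GRCm38, minus strand, as for every member). Its level was 1.04, 0.933 and 0.801 RPKM in the Ctrl libraries, 1.94, 2.01 and 1.77 RPKM in the ONC libraries and 0.878, 1.27 and 1.26 RPKM in the TPEN libraries. All ONC libraries were above all Ctrl and all TPEN libraries, and the TPEN range overlapped the Ctrl range. The mean rose from 0.926 ± 0.121 to 1.90 ± 0.123 RPKM after crush (SD, n = 3), or 0.97 ± 0.16 (standard error) on the log2 scale (limma adjusted p = 0.00201). With TPEN it was 1.14 ± 0.224 RPKM, or -0.71 ± 0.16 (standard error) on the log2 scale against ONC (limma adjusted p = 0.0250). The increase in ONC/Ctrl passed the threshold without any single library, but the decrease in TPEN/ONC did not without ONC replicate 1 (adjusted p = 0.0821), ONC replicate 2 (adjusted p = 0.0888), ONC replicate 3 (adjusted p = 0.0556) or TPEN replicate 1 (adjusted p = 0.0602). Between 44 and 126 reads per library lie behind these values. The study itself singled out Asns from these libraries, so its calls are not independent evidence for the group of genes.

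Of the 3 enzymes of serine synthesis from a glycolytic intermediate, the first was upregulated in ONC/Ctrl and the other two did not pass the test. Phgdh (chromosome 3, 98313170 to 98339990), the dehydrogenase that commits 3-phosphoglycerate to serine, was at 1.06, 0.801 and 1.44 RPKM in Ctrl, 2.99, 2.03 and 2.07 RPKM in ONC and 1.69, 1.41 and 2.06 RPKM in TPEN. Every ONC library exceeded every Ctrl library, while the TPEN libraries overlapped both groups. The level rose from 1.10 ± 0.323 to 2.36 ± 0.545 RPKM in ONC/Ctrl (log2 fold change 1.05, standard error 0.22, limma adjusted p = 0.00929), and the call held without any single library. The level in TPEN was 1.72 ± 0.323 RPKM, with log2 fold changes of -0.43 in TPEN/ONC (95% interval -0.93 to 0.073, limma adjusted p = 0.303) and 0.62 in TPEN/Ctrl (limma adjusted p = 0.105). In GENCODE M21, 12 other genes matched Phgdh transcripts over at least 300 bases at 95% identity or more, up to 1608 bases and 98.7%. None of these was analysed here and how reads shared with them were counted is not given in the sources used here, so the level of Phgdh is uncertain.

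Psat1 (chromosome 19, 15904678 to 15947337), the aminotransferase that acts after Phgdh, was at 1.65, 1.55 and 1.56 RPKM in Ctrl, 1.42, 1.61 and 1.92 RPKM in ONC and 1.39, 1.28 and 1.61 RPKM in TPEN. The 3 groups overlapped. Its log2 fold change was 0.0473 in ONC/Ctrl (95% interval -0.25 to 0.34, limma adjusted p = 0.846) and -0.19 in TPEN/ONC (95% interval -0.49 to 0.10, limma adjusted p = 0.443). Psph (chromosome 5, 129765558 to 129787449), the phosphatase that releases serine, had 4.63 ± 0.531 RPKM in Ctrl, 4.68 ± 0.328 in ONC and 4.72 ± 0.467 in TPEN (SD, n = 3). Its intervals ran from -0.21 to 0.24 in ONC/Ctrl and from -0.22 to 0.24 in TPEN/ONC on the log2 scale. The exons of Psph share 452 bases, 10.4% of their length, with Cct6a on the opposite strand, and although the library kit marks strand, its use in counting is not given in the sources used here, so the level of Psph is uncertain. Within a library, the log2 ratio of Psat1 to Phgdh was 0.52 ± 0.39 in Ctrl, -0.48 ± 0.48 in ONC and -0.24 ± 0.10 in TPEN (SD, n = 3), and all 3 Ctrl libraries were above all ONC and TPEN libraries. This ratio rests on the level of Phgdh, which is uncertain.

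Shmt2 and Mthfd2 act one after the other in the mitochondrial folate pathway, in which Shmt2 takes a one-carbon unit from serine and Mthfd2 oxidises the folate that carries it. Mthfd2 (chromosome 6, 83305691 to 83325908) was at 0.934, 1.51 and 1.26 RPKM in Ctrl, 2.13, 2.35 and 1.84 RPKM in ONC and 1.68, 1.45 and 1.42 RPKM in TPEN. The ONC libraries were the highest 3 of the 9, and the TPEN libraries overlapped those of Ctrl. The level rose from 1.23 ± 0.291 to 2.11 ± 0.257 RPKM in ONC/Ctrl (log2 fold change 0.74, standard error 0.17, limma adjusted p = 0.0125), but without ONC replicate 2 the adjusted p was 0.0506. In TPEN it was 1.52 ± 0.142 RPKM, and the log2 fold change of -0.45 in TPEN/ONC did not pass the test (95% interval -0.82 to -0.0696, limma adjusted p = 0.151).

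Shmt2 (chromosome 10, 127517123 to 127522444) had 7.56 to 12.4 times the Mthfd2 level by group mean. It was at 14.6, 14.8 and 16.6 RPKM in Ctrl, 14.0, 16.3 and 17.5 RPKM in ONC and 14.4, 14.4 and 12.7 RPKM in TPEN. All TPEN libraries were below all Ctrl libraries, and the ONC libraries overlapped both groups. The log2 fold change was 0.0494 in ONC/Ctrl (95% interval -0.15 to 0.25, limma adjusted p = 0.756) and -0.20 in TPEN/ONC (95% interval -0.40 to 0.0034, limma adjusted p = 0.235). The log2 ratio of Mthfd2 to Shmt2 was -3.55 ± 0.32 in Ctrl, -2.86 ± 0.28 in ONC and -3.11 ± 0.11 in TPEN (SD, n = 3).

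Aldh18a1 (chromosome 19, 40550257 to 40588463), which catalyses the first steps from glutamate to proline, was the other member that was lower in TPEN/ONC. Its level was 2.21, 2.15 and 2.14 RPKM in Ctrl, 2.05, 2.42 and 2.76 RPKM in ONC and 1.78, 1.53 and 1.81 RPKM in TPEN. Every TPEN library lay below every Ctrl and ONC library, and ONC replicate 1 lay below the Ctrl libraries. The mean fell from 2.41 ± 0.354 to 1.71 ± 0.157 RPKM in TPEN/ONC (log2 fold change -0.47, standard error 0.12, limma adjusted p = 0.0432). This call was lost without any 1 library other than ONC replicate 1, with adjusted p-values of up to 0.131 (without ONC replicate 3), and with only the 6 libraries compared (adjusted p = 0.0884). The log2 fold change was 0.14 in ONC/Ctrl (95% interval -0.13 to 0.40, limma adjusted p = 0.480) and -0.33 in TPEN/Ctrl (95% interval -0.60 to -0.0662, limma adjusted p = 0.10).

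Slc7a5 and Slc3a2 encode the light and heavy chains of the transporter LAT1-4F2hc, which exchanges large neutral amino acids across the cell membrane. Slc7a5 (chromosome 8, 121881150 to 121907694), the chain that carries the substrate, was at 1.28, 1.30 and 1.20 RPKM in Ctrl, 1.94, 1.75 and 1.75 RPKM in ONC and 1.69, 1.31 and 1.27 RPKM in TPEN. The ONC libraries were above all others, and the TPEN libraries overlapped those of Ctrl, with TPEN replicate 1 the highest of the 3. The level rose from 1.26 ± 0.0528 to 1.81 ± 0.108 RPKM in ONC/Ctrl (log2 fold change 0.50, standard error 0.12, limma adjusted p = 0.0193). This call was lost without Ctrl replicate 3 (adjusted p = 0.0579) or ONC replicate 1 (adjusted p = 0.0725). In TPEN/ONC the log2 fold change was -0.34 (95% interval -0.61 to -0.0621, limma adjusted p = 0.139).

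Slc3a2 (chromosome 19, 8706882 to 8723369), which also pairs with other light chains, was the member with the highest level in every library. It had 26.3, 24.7 and 27.9 RPKM in Ctrl, 27.8, 28.3 and 29.5 RPKM in ONC and 25.3, 26.8 and 25.1 RPKM in TPEN. All TPEN libraries were below all ONC libraries, and ONC overlapped Ctrl. The log2 fold change was 0.12 in ONC/Ctrl (95% interval 0.0068 to 0.23, limma adjusted p = 0.136) and -0.15 in TPEN/ONC (95% interval -0.26 to -0.0369, limma adjusted p = 0.112). The log2 ratio of Slc7a5 to Slc3a2 was -4.28 ± 0.14 in Ctrl, -3.91 ± 0.12 in ONC and -4.09 ± 0.23 in TPEN (SD, n = 3).

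**Figure D1:**
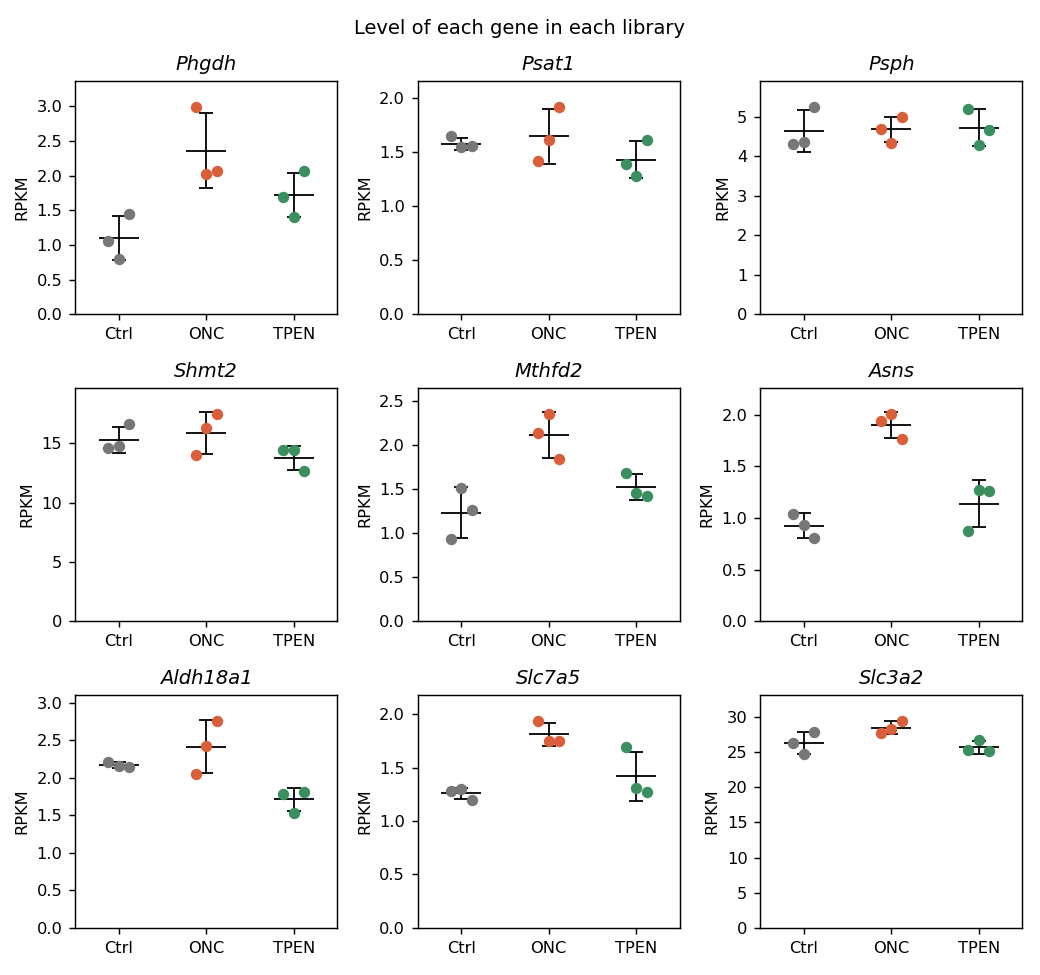
Level of each of the 9 genes in RPKM (y axis, from 0) in each library of Ctrl, ONC and TPEN (x axis, 3 points per group). The bar is the mean and the whisker the SD (n = 3). The ONC points lie above all Ctrl points for Phgdh, Mthfd2, Asns and Slc7a5, and the TPEN points of Aldh18a1 lie below all others.

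Ordered by level per length, Slc3a2, Shmt2 and Psph came first in all 3 groups, and neighbours in this order did not overlap between libraries. Aldh18a1 followed in Ctrl at 2.17 ± 0.0402 RPKM, then Psat1, neither overlapping the next in order, while each of the last 4 (Slc7a5, Mthfd2, Phgdh and Asns) overlapped the next among them. In ONC, the 6 genes from Aldh18a1 (2.41 RPKM) to Psat1 (1.65 RPKM) each overlapped the next in order. Asns was the lowest in Ctrl and in TPEN but not in ONC, where Psat1 was.

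The comparison of ONC with Ctrl asked how these genes differed 3 d after nerve crush with a PBS injection. Crush and injection cannot be told apart in ONC/Ctrl, nor can crush, injection and TPEN in TPEN/Ctrl. Asns, Phgdh, Mthfd2 and Slc7a5 passed the test, all higher, and the first 3 by at least 1.5-fold, so that 4 of 9 members were called higher where 11.7% of the 13566 genes tested were, and 0 lower where 6.97% were. In the same comparison 4.58% of genes were higher by at least 1.5-fold, and 20.7% had all ONC libraries above all Ctrl libraries, as 4 of the 9 members did. Across all genes 1590 were higher and 946 lower, and after quantile normalization 1262 were higher and 1428 lower, while the members called stayed at 4 higher and 0 lower. The median log2 fold change was 0.137 over the members and 0.0167 over all genes tested. All 9 fitted values were above 0, but those of Psat1, Psph and Shmt2 turned below 0 after quantile normalization (-0.0214, -0.00481 and -0.00308). The members were chosen with earlier results of these data known, and the study itself singled out Asns. The counts of members called here and in TPEN/ONC are therefore not independent evidence.

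The comparison of TPEN with ONC asked how the injured samples differed with TPEN in place of PBS vehicle. Asns and Aldh18a1 passed the test, both lower, so that 2 of 9 members were called where 4.14% of genes were called lower and 3.24% higher. Asns alone reached a 1.5-fold decrease, as did 1.21% of genes. All TPEN libraries were below all ONC libraries for 5 members (Asns, Mthfd2, Aldh18a1, Slc7a5 and Slc3a2), against 15.6% of genes. The median was -0.337 over the members and -0.0110 over all genes. Across all genes 440 were higher and 562 lower, or 535 and 457 after quantile normalization.

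In TPEN/Ctrl, limma called 0 of the 9 members in either direction, where 8.36% of genes were called higher and 5.01% lower. At an unadjusted p under 0.05 there were 2, Phgdh among the 15.7% of genes that were higher and Aldh18a1 among the 11.4% that were lower at that threshold. Voom on the reads that the values imply called 1, Phgdh (adjusted p = 0.0481), as limma also did without Ctrl replicate 3 (adjusted p = 0.0467). For the 4 genes called in ONC/Ctrl, the log2 fold changes against Ctrl were 0.26 for Asns (95% interval -0.0937 to 0.61), 0.30 for Mthfd2 (-0.0802 to 0.67) and 0.16 for Slc7a5 (-0.12 to 0.43), besides the 0.62 of Phgdh (0.12 to 1.12). All TPEN libraries were below all Ctrl libraries for Shmt2 and Aldh18a1, against 13.3% of genes. Across all genes 1134 were higher and 680 lower, or 900 and 830 after quantile normalization. The 3 comparisons share libraries, so each fold change is given on its own and no agreement between them was counted.

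**Figure D2:**
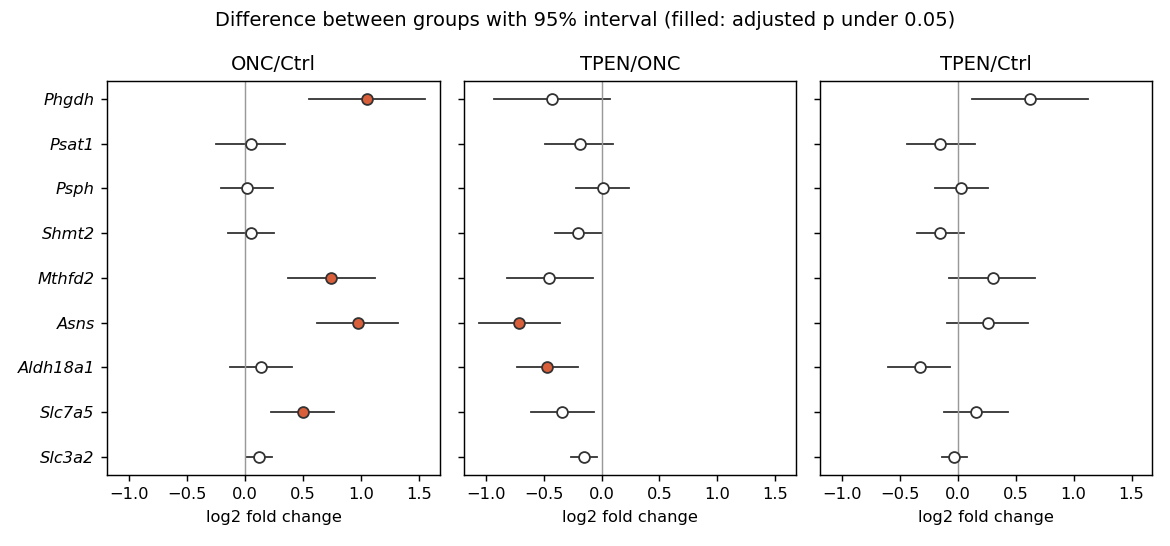
Difference of each gene between groups as a log2 fold change on the log2(RPKM + 0.1) scale (x axis), with its 95% interval (line), for ONC/Ctrl, TPEN/ONC and TPEN/Ctrl. Filled points have a limma adjusted p under 0.05, which holds for 4 genes in ONC/Ctrl, 2 in TPEN/ONC and 0 in TPEN/Ctrl.

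**Figure D3:**
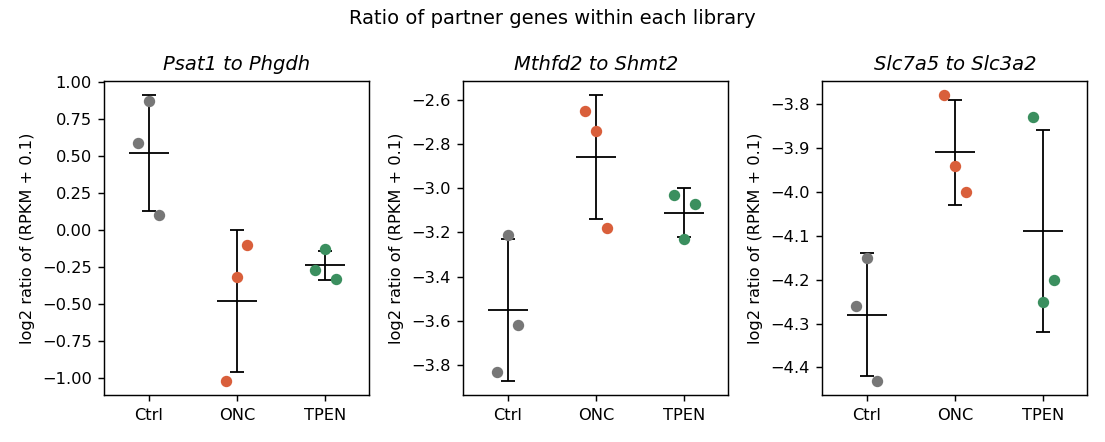
Log2 ratio of (RPKM + 0.1) between partner genes within each library (y axis), by group (x axis, 3 points each, bar mean, whisker SD). The Psat1 to Phgdh ratio is above 0 in all Ctrl libraries and below 0 in all ONC and TPEN libraries, and the axes of the 3 panels differ. This sign rests on the uncertain level of Phgdh, and the values nearest 0 are 0.10 (Ctrl replicate 3) and -0.10 (ONC replicate 3).

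Markers of other cells moved in the same comparisons. All 12 microglia and macrophage markers tested rose after crush (ONC/Ctrl), 7 of 12 fell with TPEN (TPEN/ONC), and none of Aif1, Csf1r, C1qa and Tmem119 was at 0 in any library. Several of them had a Ctrl mean under the 0.5 RPKM of the filter, such as Aif1 (0.274 RPKM). Tmem119 passed it only through ONC (0.0668 RPKM in Ctrl, 1.0 in ONC and 0.473 in TPEN). These counts thus partly follow from the filter. Csf1r, the receptor that microglia depend on, was at 0.724 to 0.930 RPKM in Ctrl, 5.72 to 5.94 RPKM in ONC and 3.01 to 3.61 RPKM in TPEN. By group mean it thus followed the same order of groups as Asns, Phgdh, Mthfd2 and Slc7a5. In TPEN/Ctrl, however, Csf1r was called higher (log2 fold change 1.88, limma adjusted p = 3.75e-06), and none of these members was called. Summed astrocyte markers (4 of 6 analysed) were at 64.1 to 64.3 RPKM in Ctrl, 82.2 to 83.6 RPKM in ONC and 74.1 to 75.4 RPKM in TPEN, with 1 of 4 called higher after crush and 1 called lower with TPEN. Both calls were of Gfap, with means of 2.79 (Ctrl), 22.2 (ONC) and 14.4 RPKM (TPEN). Aldoc (41.5, 41.9 and 41.1 RPKM), Slc1a2 (18.8, 17.5 and 18.1 RPKM) and S100b (1.09, 1.28 and 1.1 RPKM) were called in neither comparison. Of 10 Müller glia markers, 2 were higher and 4 lower in ONC/Ctrl, and again 2 higher and 4 lower in TPEN/ONC. Genes of dividing cells summed to 29.2 to 29.9 RPKM in Ctrl, 32.7 to 36.3 RPKM in ONC and 31.0 to 33.7 RPKM in TPEN, with 2 of 8 tested higher in ONC/Ctrl and 0 called in TPEN/ONC. Most of this sum came from Pcna (means of 14.3, 15.8 and 15.4 RPKM in Ctrl, ONC and TPEN) and Ccna2 (9.05, 8.67 and 9.1 RPKM). Mki67 (0.0467, 0.787 and 0.394 RPKM) and Top2a (0.0143, 0.481 and 0.202 RPKM), named after their values were seen, lay under the filter and were not tested. Of 8 RGC markers tested, 3 rose and 1 fell in ONC/Ctrl, and 1 rose and 4 fell in TPEN/ONC. Rod and cone markers were lower for 8 of 12 in ONC/Ctrl and higher for 7 of 12 in TPEN/ONC. Of 6 amacrine markers, 1 rose and 1 fell in ONC/Ctrl, and 4 rose and 0 fell in TPEN/ONC. Of 7 bipolar markers, 2 fell after crush and 1 rose with TPEN, and of 4 endothelial or pericyte markers 1 rose after crush and 0 were called with TPEN. None of 8 neutrophil and T cell markers was analysed. The part of these cells in the changes of the members was not tested.

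The other genes of these pathways were counted in the same way. The shares over all genes, to set beside these lists and the markers above, were 11.7% higher and 6.97% lower in ONC/Ctrl. In TPEN/ONC they were 3.24% higher and 4.14% lower. Of 20 other genes of serine, glycine and one-carbon metabolism tested, 5 were higher and 1 lower in ONC/Ctrl, with a median log2 fold change of 0.0482, and 0 were called in TPEN/ONC (median -0.0356). Aldh1l1, a cytosolic folate dehydrogenase and a common astrocyte marker, rose from 2.04 ± 0.379 to 4.22 ± 0.146 RPKM (log2 fold change 1.03, limma adjusted p = 0.000364). Its mitochondrial counterpart Aldh1l2 rose by a log2 fold change of 0.45 (limma adjusted p = 0.0212), and Mthfd1, the cytosolic enzyme with related folate activities, by 0.30 (limma adjusted p = 0.0120). Of the glycine cleavage genes, Gldc (0.41, limma adjusted p = 0.0459, with overlapping libraries) and Gcsh, named after its values were seen (0.29, limma adjusted p = 0.0185), were higher and Amt was lower (-0.42, limma adjusted p = 0.00295).

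Of the paralogues of the members, Mthfd2l was at 0.723 ± 0.0295 RPKM in Ctrl and 0.751 ± 0.0812 RPKM in ONC, and Mthfd1l at 0.653 ± 0.142 and 0.916 ± 0.0803 RPKM (limma adjusted p = 0.0745). Pycrl, which catalyses the last step of proline synthesis, had 5.42 ± 0.263 RPKM in Ctrl, 5.55 ± 0.188 in ONC and 5.12 ± 0.690 in TPEN (SD, n = 3). None of these 3 genes was called in any of the comparisons.

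Of 15 other genes of asparagine, proline and glutamate metabolism tested, 0 were higher and 3 lower in ONC/Ctrl (median -0.0107). Glul, the glutamine synthetase of Müller glia, fell from 173 ± 3.19 to 116 ± 0.454 RPKM (log2 fold change -0.57, limma adjusted p = 9.66e-07) and was lower again in TPEN/ONC (-0.18, limma adjusted p = 0.00622). Asrgl1, an asparaginase, went the other way from Asns, with log2 fold changes of -0.23 in ONC/Ctrl (limma adjusted p = 0.00139) and 0.18 in TPEN/ONC (limma adjusted p = 0.0137). The mitochondrial glutamate carrier Slc25a22 was lower in ONC/Ctrl (-0.39, limma adjusted p = 0.00273).

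Of 18 other amino acid transporters tested, 1 was higher and 3 lower in ONC/Ctrl (median -0.0452), and 2 were higher in TPEN/ONC. The gene that rose was Slc7a1, a carrier of cationic amino acids, from 0.866 ± 0.119 to 1.37 ± 0.105 RPKM (log2 fold change 0.61, limma adjusted p = 0.00848). The glycine transporter Slc6a9 fell in ONC/Ctrl (-0.35, limma adjusted p = 0.00132) and was higher in TPEN/ONC (0.23, limma adjusted p = 0.0277). Slc38a1, which takes up glutamine, was higher in TPEN/ONC (0.49, limma adjusted p = 0.00595), at 4.24 ± 0.158 against 2.98 ± 0.118 RPKM.

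Among 15 genes of ATF4 itself, its partners and other stress targets, 8 rose and 1 fell in ONC/Ctrl while 0 rose and 4 fell in TPEN/ONC, with medians of 0.339 and -0.102. The 4 lower in TPEN/ONC were Cebpb (-1.24, limma adjusted p = 0.0190), a C/EBP transcription factor also induced in myeloid cells, Eif4ebp1 (-1.37, limma adjusted p = 0.0329), which restrains cap-dependent translation, Nupr1 (-0.50, limma adjusted p = 0.0426) and Atf3 (-0.44, limma adjusted p = 0.00252). These 4 had risen in ONC/Ctrl by log2 fold changes of 2.06, 1.37, 2.19 and 1.20, and Atf5 by 0.52. Eif4ebp1 was at 0.392 ± 0.211 RPKM in Ctrl, 1.11 ± 0.209 in ONC and 0.382 ± 0.160 in TPEN. Only its ONC mean exceeded the 0.5 RPKM of the filter, so the filter favoured its calls in both comparisons. Cebpb, at 0.26 RPKM in Ctrl, 1.35 in ONC and 0.528 in TPEN, passed the filter largely through ONC. The study itself singled out Cebpb from these libraries, so its calls are not independent evidence either. Atf4, named here after its values were seen, was at 114.4 to 118.6 RPKM in Ctrl, 135.0 to 137.3 RPKM in ONC and 133.7 to 136.9 RPKM in TPEN. Its mRNA was thus higher in ONC/Ctrl (log2 fold change 0.23, limma adjusted p = 0.000149) with overlapping ranges in ONC and TPEN (log2 fold change -0.0074, limma adjusted p = 0.902). Asns was called lower in TPEN/ONC, a call lost without some single libraries, and Phgdh, Mthfd2 and Slc7a5 were not called there.

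**Figure D4:**
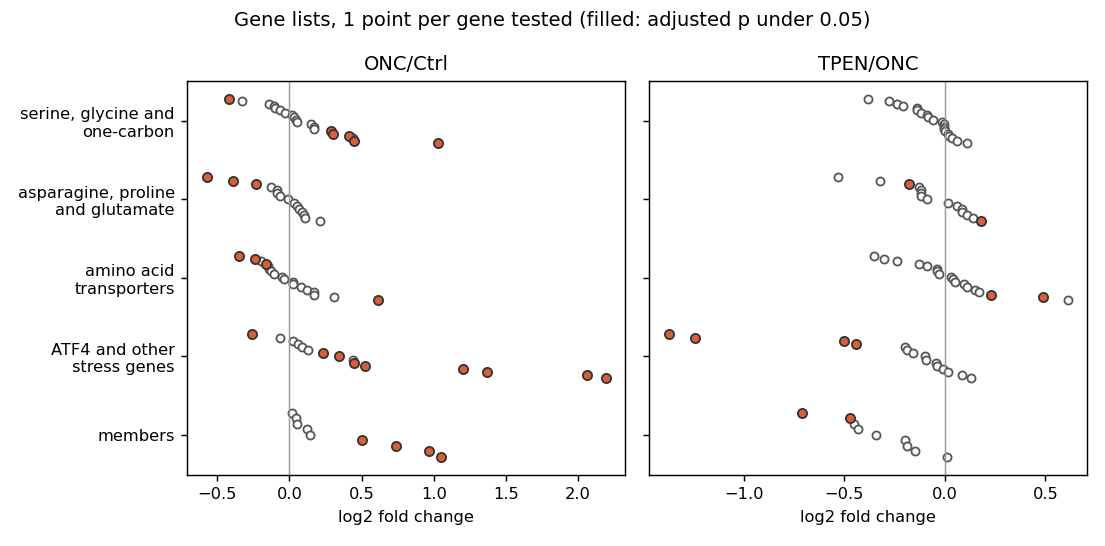
Log2 fold change (x axis) of every gene tested in the 4 pathway lists and of the 9 members, in ONC/Ctrl and TPEN/ONC, with 1 point per gene, sorted within each list. Filled points have a limma adjusted p under 0.05. In ONC/Ctrl they number 6 of 20, 3 of 15, 4 of 18, 9 of 15 and 4 of 9 from top to bottom.

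The genes with the most similar course over the 9 libraries were ranked by Pearson's r on log2(RPKM + 0.1) among 12134 genes, and the 9 libraries fall into 3 groups and are not 9 independent conditions. For Asns they were N6amt1 (r = 0.966), Usp8 (0.963) and Rpl21 (0.961), and for Phgdh 4430402I18Rik (0.974), Rps9 (0.959) and Slc1a1 (0.953), a glutamate and cysteine transporter. Mthfd2 was most like Stau1 (0.966), Dusp3 (0.963) and Man2b1 (0.957), and Slc7a5 most like Crebbp (0.966), Ccnd1 (0.965) and Rabl6 (0.965). Aldh18a1 was most like Pdcd4 (0.968), Nat6 (0.931) and Pik3c3 (0.931). None of the 15 genes named is a member, and a likeness of this size over 9 libraries is a description only.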

How the data were processed

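RNA of cells sorted as RGCs was sequenced in 9 libraries (Ctrl, ONC and TPEN, 3 each). Per the study's methods, total RNA was made into stranded, UMI-tagged libraries and reads were mapped to GRCm38/mm10 with STAR. The submitters' processing notes also name Trimmomatic 0.36. The counting program, annotation and UMI collapsing are not given in the sources used here. The authors deposited RPKM per gene and library, beside log2 fold changes and p-values from comparisons of their own that were not used. Every RPKM times gene length was a whole multiple of 1 read step per library (100.0% of values within 0.01 read), which gave 19946993 to 23109754 reads per library.

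The 13566 genes whose mean reached 0.5 RPKM were tested on log2(RPKM + 0.1) with limma 3.58.1 (R 4.3.3), with a trend of variance on mean and all 9 libraries in 1 fit, and Benjamini-Hochberg adjustment over these genes. The pseudocount of 0.1 RPKM understates the change of low genes. A call is an adjusted p under 0.05. The script was tested on simulated data. Groups do not overlap where every library of 1 group exceeds every library of the other. Near copies were sought with blastn 2.17.0. Alternatives were a pseudocount of 1 RPKM, a minimum of 1 RPKM or none, quantile normalization, voom on the implied reads, only the 6 libraries compared, a replicate block, a 1.5-fold minimum and leaving out each library. Named are all members, from each pathway list at most the 5 genes called with the largest change per comparison, paralogues of members (1 is not reported here), and the 3 genes most like each called member (mean of at least 1 RPKM). Members and lists were chosen with earlier results of these data known.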

Additional observations from a re-analysis of the deposited data

How the results depend on the processing

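Asns and Phgdh kept their call in ONC/Ctrl under all 7 other settings of the fit and in all 9 fits without 1 library, and Mthfd2 and Slc7a5 under the same 7 settings. The 2 members lower in TPEN/ONC became 1 with only the 6 libraries compared, 1 with a 1.5-fold minimum, 0 to 1 without 1 library, and 3 with voom, which also called Slc3a2 (adjusted p = 0.0419). In TPEN/Ctrl, 1 member was higher with voom, and 0 to 1 without 1 library. Same-numbered libraries did not deviate together (correlations of -0.0623 to 0.0268 over 9 pairs, 0 over 0.1), so the numbers are not taken to pair the samples. With the number as a replicate block, 0 members were lower in TPEN/ONC (Asns adjusted p = 0.0577, Aldh18a1 adjusted p = 0.0740) and 4 stayed higher in ONC/Ctrl.

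Over all genes, a 1.5-fold minimum left 622 genes higher and 102 lower for ONC/Ctrl, 111 and 164 for TPEN/ONC and 468 and 62 for TPEN/Ctrl. Quantile normalization gave 1428 lower in ONC/Ctrl. Voom gave 740 higher and 948 lower in TPEN/ONC. Without 1 library, genes higher in TPEN/ONC ranged from 247 (without ONC replicate 2) to 491, genes lower from 279 (without ONC replicate 1) to 660, and genes lower in TPEN/Ctrl from 452 (without Ctrl replicate 1) to 622.

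Quantile normalization turned the direction of Psat1 (-0.0214), Psph (-0.00481) and Shmt2 (-0.00308) in ONC/Ctrl. Without 1 library, the ranges that crossed 0 were -0.0623 to 0.14 (Psat1), -0.0341 to 0.11 (Psph) and -0.0212 to 0.14 (Shmt2) in ONC/Ctrl, -0.0608 to 0.0779 (Psph) in TPEN/ONC, and -0.0446 to 0.12 (Psph) and -0.0732 to 0.0131 (Slc3a2) in TPEN/Ctrl. The causes were not tested. The values of Asns, Phgdh, Mthfd2 and Slc7a5, whose direction did not turn, rest on fewer reads (44 to 188 per library) than those of Slc3a2 (1764 to 2392).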

Other observations

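Of the genes in the pathway lists, 6 lay under the filter on low levels and were not tested (Shmt1, Cbs, Slc25a15, Slc7a11, Slc7a3 and Slc1a4). They were named after their values were seen. Slc7a11, which pairs with the Slc3a2 product to import cystine, had 1, 2 and 10 reads in the Ctrl libraries, 39, 44 and 40 reads in the ONC libraries and 10, 10 and 12 reads in the TPEN libraries, with means of 0.0151, 0.128 and 0.0372 RPKM. All ONC libraries were above all others, and Ctrl replicates 1 and 2 had fewer than the 3 reads that a count of 0 allows. The study itself singled out Slc7a11 from these libraries, so this order of groups is not independent evidence. Shmt1, the cytosolic counterpart of Shmt2, had 0.390 ± 0.0878 (Ctrl), 0.310 ± 0.0965 (ONC) and 0.351 ± 0.0806 RPKM (TPEN; SD, n = 3), and the groups overlapped. Slc1a4, a carrier of alanine, serine and cysteine, had 0.305 ± 0.10 (Ctrl), 0.565 ± 0.0865 (ONC) and 0.573 ± 0.115 RPKM (TPEN), with both injured groups above all Ctrl libraries. Slc7a3 had means of 0.542 (Ctrl), 0.380 (ONC) and 0.329 RPKM (TPEN), Slc25a15 of 0.447, 0.459 and 0.457 RPKM, and Cbs of 0.259, 0.139 and 0.186 RPKM.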
